A study of Mus musculus with 17 samples.

Results

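The response of the wild-type (WT) colon to pregnenolone 16α-carbonitrile (PCN) was described across all genes measured, by comparing the arrays labelled WT PCN with those labelled WT CONT. These are 8 of the 17 colon arrays, 4 in each group, taken by their labels and not by any measured value. The mice were C57BL/6J males, bought from a breeder at 6 weeks of age and acclimatized for 2 weeks. WT PCN mice received 100 mg/kg PCN in corn oil by intraperitoneal injection on each of 4 days, and WT CONT mice received corn oil alone by the same route. All were killed at zeitgeber time 6, which was 6 h after the last injection, and RNA was taken from the snap-frozen colon, so each array holds all cell types of the organ wall. Another 9 arrays, labelled Pxr-/- CONT (n = 5) and Pxr-/- PCN (n = 4), came from mice that lack the receptor PXR, were bred in the authors' own facility on the C57BL/6J background, and were injected and killed in the same way. The WT mice were not littermates of the Pxr-/- mice, so genotype and source of the animals cannot be told apart.

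PXR, the pregnane X receptor encoded by Nr1i2, is a nuclear receptor that binds bile acids, steroids and drugs, pairs with a retinoid X receptor on DNA, and raises the transcription of genes that oxidize, conjugate and export foreign compounds. PCN is a synthetic steroid that activates the rodent receptor. In liver and intestine its classical targets are cytochromes P450, carboxylesterases, aldo-keto reductases, glutathione S-transferases, and the efflux pumps of the ATP-binding cassette (ABC) family, and the receptor is also known for restraining NF-κB-driven inflammatory genes.

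Each array gave 1 log2 signal for each of 36695 probes, which carry 23761 gene or transcript names. Per array, 92.6% to 99.4% of these probes exceeded the background clearly. Colon markers were read on every WT array. The mean log2 signal of 15 colonocyte genes lay between 14.61 and 15.08 on the 8 WT arrays, and that of 12 goblet cell genes between 15.23 and 16.44. Markers of colon segments and of other organs differed between arrays. The mean signal of 4 distal colon genes lay between 8.82 and 11.35 on the WT arrays and was highest in WT PCN replicate 1. Pancreatic enzyme genes, 9 in all, averaged 16.55 in WT CONT replicate 4 and 16.09 in WT PCN replicate 3, against 6.96 to 10.34 on the other WT arrays. For 11 liver genes the mean reached 11.44 in WT CONT replicate 5, against 8.32 to 10.08 on the other WT arrays. The part of these differences in the results was not tested.

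A pair of WT PCN arrays was unusually close to arrays labelled Pxr-/-. Over all probes, WT PCN replicate 4 differed from Pxr-/- PCN replicate 2 by a standard deviation of 0.165 on the log2 scale (r = 0.998), and WT PCN replicate 3 differed from Pxr-/- CONT replicate 2 by 0.233 (r = 0.996). Among the other 134 pairs of arrays, the smallest such value was 0.264 and the largest 0.600, and 2 arrays hybridized on the same slide differed by at least 0.329. The arrays of both near-identical pairs lay on different slides. Across 23761 genes, 1400 were lower and 1721 were higher in both WT PCN replicates 3 and 4 than in all 6 other WT arrays, which is 13.1% of genes. The labels were kept as given, how many different mice they stand for was not settled, and results are given with all 4 WT PCN arrays and with replicates 3 and 4 left out. Where a single value stands for a gene below, it is the log2 difference with these 2 arrays left out. Nothing in the labels ties a replicate number to an extraction, so p-values measure the spread between arrays.

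Nr1i2 itself was checked first. Its probe, on chromosome 16 from 38248745 to 38248804 of build mm9, was read at log2 signals of 12.13, 12.45, 11.91 and 11.83 in WT CONT replicates 2 to 5. It was at 12.29 and 11.98 in WT PCN replicates 1 and 2, and at 11.25 and 11.29 in WT PCN replicates 3 and 4. These last 2 values lay below all other WT arrays and inside the range of the 9 arrays labelled Pxr-/-, which was 10.54 to 12.09. Since the probe is read in the Pxr-/- arrays too, its level does not by itself check a label. The PCN effect on Nr1i2 was -0.35 ± 0.27 (SE, log2 difference) with all arrays and 0.05 ± 0.29 without replicates 3 and 4, and neither passed the test (limma, adjusted p = 0.932 and 1.00).

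A gene was called when a probe of it had a false discovery rate of at most 0.05 by limma and a fold change over 1.5. With all 4 WT PCN arrays, no gene was called (0 of 23761, or 0%). At an unadjusted p under 0.05 there were 1786 probes, 927 higher and 859 lower under PCN, carrying 1631 gene names or 6.86% of all. The smallest adjusted p was 0.162. With replicates 3 and 4 left out, 36 genes were called, or 0.152% of the 23761, all of them higher under PCN and none lower, and 1928 probes had an unadjusted p under 0.05, 1265 higher and 663 lower, carrying 7.27% of the gene names. That fit sets 2 PCN arrays against 4 controls and takes its spread from 15 arrays of all 4 groups. When the spread was taken from the 6 WT arrays alone, 0 genes were called and 1560 probes had an unadjusted p under 0.05, and with the slide as a fixed block 1 gene, Ces2a, was called. When the partners of both near-identical pairs were left out too, 19 genes were called, all among the 36. The count was 18 without WT CONT replicate 2, 15 without WT CONT replicate 3, 63 without WT CONT replicate 5 and, of the PCN arrays, 101 without replicate 1 and 65 without replicate 2. Since the colon was measured as a whole, fewer cells of a type and less RNA per cell cannot be told apart in any of these values.

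**Figure D1:**
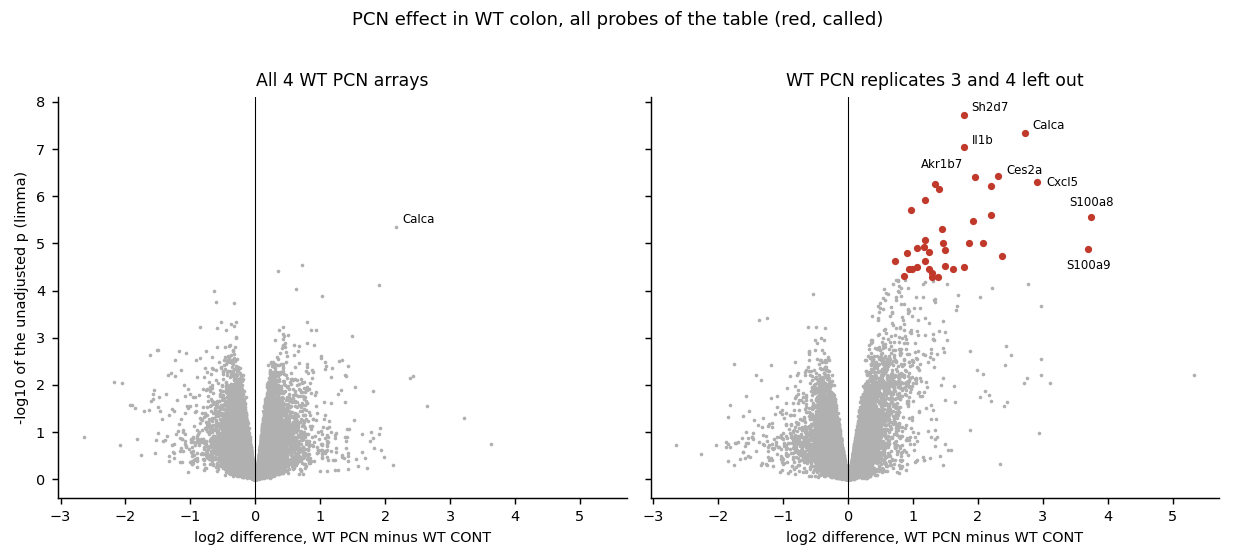
Log2 difference of WT PCN and WT CONT (x axis) against -log10 of the unadjusted limma p (y axis) for each of 36695 probes, with all 4 WT PCN arrays on the left and with replicates 3 and 4 left out on the right. Red points are probes of called genes. No probe is red on the left, where Calca has the smallest p, and all red points on the right lie above 0.

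The 36 genes fell by their lists into 5 genes of drug metabolism and transport, 17 genes of cytokine, neutrophil, myeloid or venule adhesion lists, and 14 genes in neither. Their log2 differences ran from 0.87 to 3.75 with a median of 1.48, and their standard errors from 0.12 to 0.54. All 36 were higher in both WT PCN replicates 1 and 2 than in all 4 WT CONT arrays. Over all genes 8.38% showed that order. Replicates 1 and 2 each shared a slide with 1 control, and all 36 genes were higher than that control on both slides. The median differences were 1.44 and 1.63 and the smallest 0.64 and 0.61. The genes were called from these same arrays, so both orders follow largely from the calls and are no separate test. WT PCN replicate 3 also shared a slide with a control, WT CONT replicate 3, and there 11 of the 36 genes were higher, with a median of -0.17. With all arrays the median of the 36 was 0.82, and 27 of them had an unadjusted p under 0.05.

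**Figure D2:**
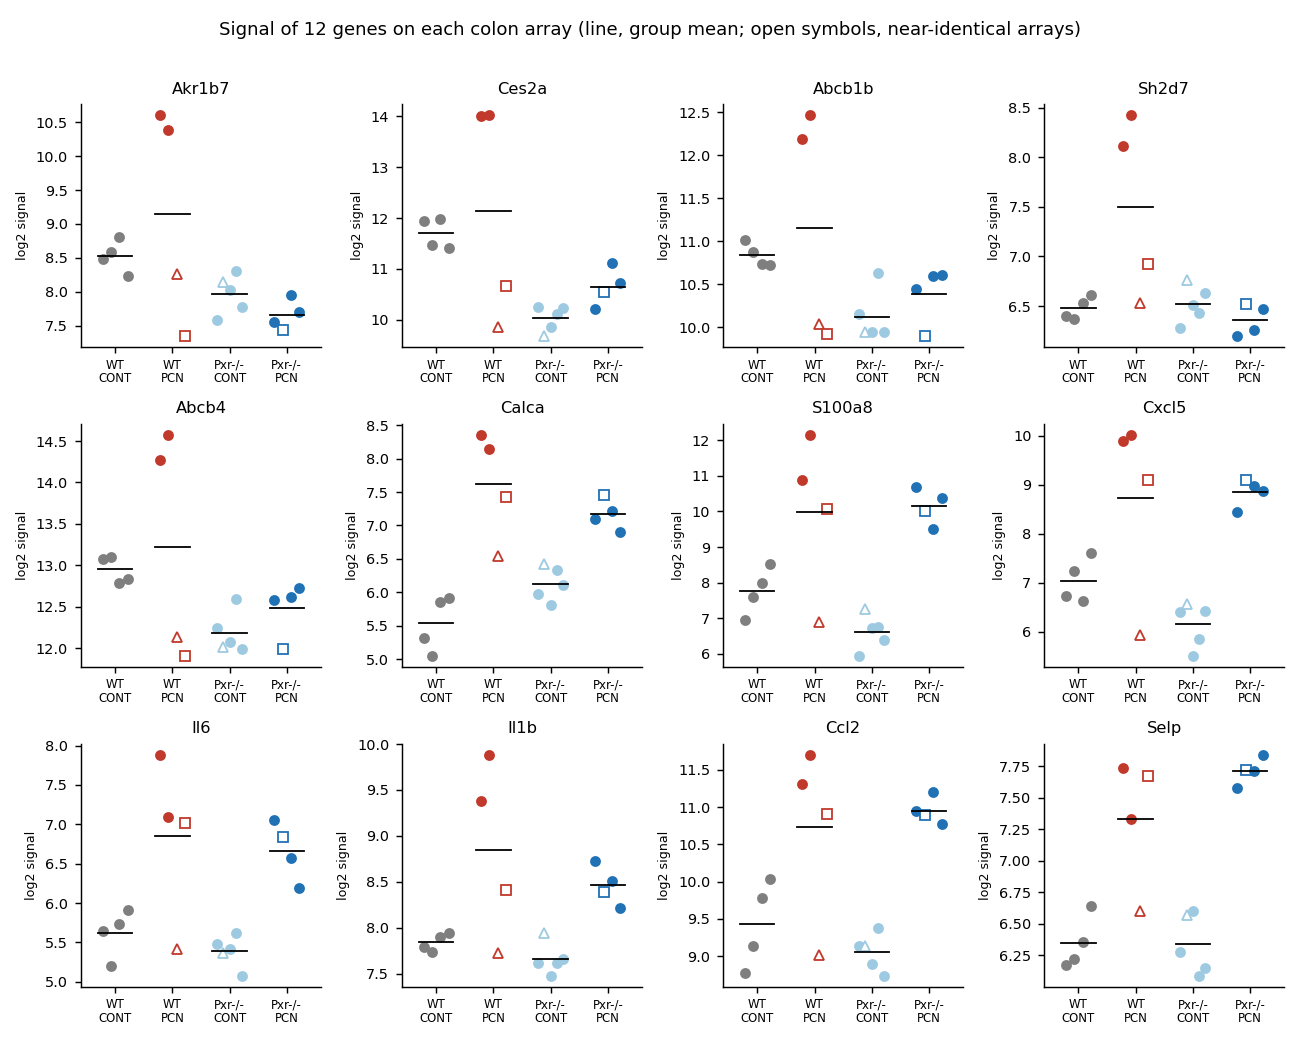
Log2 signal (y axis) of 12 called genes on each array, by group (x axis). Filled circles are arrays, black lines are group means, and open symbols are the near-identical arrays (triangles, WT PCN replicate 3 and Pxr-/- CONT replicate 2; squares, WT PCN replicate 4 and Pxr-/- PCN replicate 2). The open red symbols lie among or below the controls for Akr1b7, Ces2a, Abcb1b and Abcb4, and the open red square lies above the controls for S100a8, Cxcl5, Il6, Il1b, Ccl2 and Selp.

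The genes of drug metabolism called in WT colon were Akr1b7, Ces2a and 3 ABC transporters. Akr1b7, an aldo-keto reductase that reduces reactive aldehydes, was at log2 signals of 8.48, 8.58, 8.81 and 8.24 in WT CONT replicates 2 to 5 and at 10.60, 10.38, 8.27 and 7.35 in WT PCN replicates 1 to 4. Its first 2 PCN arrays lay well above all controls, the third among the controls and the fourth below them. Without replicates 3 and 4 the log2 difference was 1.96 ± 0.21 (SE), a 3.89-fold rise (limma, adjusted p = 0.00278), and with all arrays it was 0.68 ± 0.53 (adjusted p = 0.932). Ces2a, a carboxylesterase that cleaves ester drugs and lipids, was at 11.95, 11.47, 11.98 and 11.42 in WT CONT and at 14.00, 14.02, 9.86 and 10.66 in WT PCN. Here replicates 3 and 4 were both lower than every control. The difference was 2.30 ± 0.24 without them (4.94-fold, adjusted p = 0.00278) and 0.53 ± 0.72 with all arrays (adjusted p = 0.942).

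The 3 transporters lie next to each other on chromosome 5. Abcb1a and Abcb1b code for P-glycoproteins, which pump drugs out of epithelial cells, and Abcb4 for a phospholipid exporter. Abcb1b was at 11.01, 10.87, 10.74 and 10.72 in WT CONT and at 12.19, 12.46, 10.04 and 9.92 in WT PCN. Abcb1a was at 14.00, 14.09, 13.75 and 13.87 in WT CONT and at 15.17, 15.45, 13.09 and 12.88 in WT PCN. Abcb4 was at 13.08, 13.10, 12.79 and 12.84 in WT CONT and at 14.27, 14.57, 12.14 and 11.91 in WT PCN. In all 3 genes the groups did not overlap for replicates 1 and 2, and replicates 3 and 4 lay below every control. The log2 differences without replicates 3 and 4 were 1.49 ± 0.22 for Abcb1b (2.81-fold, adjusted p = 0.0216), 1.38 ± 0.23 for Abcb1a (2.60-fold, adjusted p = 0.0485) and 1.47 ± 0.21 for Abcb4 (2.76-fold, adjusted p = 0.0192), and with all arrays they were 0.37, 0.27 and 0.32. A second, dimmer probe of Abcb1a gave 1.11 ± 0.31 and did not pass (adjusted p = 0.469). Over 21 alternative fits, Abcb1a kept its call in 7, Abcb1b in 12 and Abcb4 in 14, against 19 for Akr1b7 and for Ces2a. Whether the probes of these related genes bind each other's transcripts was not tested. The mean signal of 11 liver genes was 9.83 and 10.08 in WT PCN replicates 1 and 2 and 8.54 to 9.11 in WT CONT replicates 2 to 4. In WT CONT replicate 5, where it was highest (11.44), Ces2a was at 11.42, Akr1b7 at 8.24 and Abcb1b at 10.72, the lowest WT CONT values. Abcb1a and Abcb4 were at 13.87 and 12.84 there, which were not the lowest. Whether liver RNA had a part in the values of these genes was not tested.

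Few other genes of these families were called. Of 232 listed genes in 9 families of phase I to III, 186 were measured and 5 were called, against 0.152% of all genes. The median log2 difference of the 186 was 0.02 without replicates 3 and 4, against -0.01 over all genes. Of the 55 cytochromes P450 measured, none was called and the median was -0.11. Of these, 18 of 55 (32.7%) were higher under PCN, against 48.4% of all genes. Of a narrower list of 31 genes known as PXR targets, 25 were measured and 23 of them (92.0%) were higher. In that list 4 of the 25 were called, and the median was 0.35, or 0.22 with all arrays. In 10 of the 25, or 40.0%, both PCN arrays were above all controls, against 8.38% of all genes. This list and those of the 9 families were chosen with earlier results of these data known, so their shares are no independent test. Cyp2c55, an intestinal cytochrome P450, had the largest difference of that list. It was at 14.24, 12.78, 15.43 and 13.27 in WT CONT and at 15.63, 17.04, 13.55 and 13.23 in WT PCN. Replicates 1 and 2 lay above all controls and replicates 3 and 4 among them, and WT CONT replicate 4 was nearly as high as WT PCN replicate 1. The difference of 2.40 ± 0.97 without replicates 3 and 4 did not pass (adjusted p = 0.847), nor did that of 1.03 ± 0.92 with all arrays (adjusted p = 0.932). Alas1, which makes the heme precursor that cytochromes P450 need, was at 13.53, 13.86, 14.37 and 13.84 in WT CONT and at 14.68, 15.28, 14.16 and 14.26 in WT PCN, a difference of 1.08 ± 0.25 (adjusted p = 0.254). Ces2f, another carboxylesterase, was close to the threshold, with a difference of 1.15 ± 0.20 (adjusted p = 0.0548), and Cyp3a11, the classical hepatic target, was at a low signal of 6.38 to 6.81 in WT CONT and of 6.91, 7.48, 6.25 and 6.51 in WT PCN, a difference of 0.60 ± 0.18 without replicates 3 and 4 (adjusted p = 0.589).

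The 250 bases upstream of the RefSeq transcription start (build GRCm38.p6) are shown for 5 of the called genes, so that sequence can be read beside response. Each of the 5 holds a match to a site marked below. Akr1b7, Ces2a and Sh2d7 were not called in Pxr-/- arrays. Of the inflammatory genes Il6 and Cxcl1, described further on, Il6 was called there and Cxcl1 was not. The sequences are written 5′ to 3′ on the strand of the gene. Capitals in the first 3 mark the nuclear receptor half-sites AGGTCA or AGTTCA on either strand, which PXR and its partner bind in pairs, and capitals in the last 2 mark a match to the κB site of NF-κB on either strand.
Akr1b7, chr6:34412112-34412361, plus strand: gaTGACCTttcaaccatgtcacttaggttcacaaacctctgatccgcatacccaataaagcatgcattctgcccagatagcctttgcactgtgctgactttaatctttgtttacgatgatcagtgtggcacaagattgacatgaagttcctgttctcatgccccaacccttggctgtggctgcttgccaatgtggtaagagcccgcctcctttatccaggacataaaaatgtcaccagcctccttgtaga
Ces2a, chr8:104733753-104734002, plus strand: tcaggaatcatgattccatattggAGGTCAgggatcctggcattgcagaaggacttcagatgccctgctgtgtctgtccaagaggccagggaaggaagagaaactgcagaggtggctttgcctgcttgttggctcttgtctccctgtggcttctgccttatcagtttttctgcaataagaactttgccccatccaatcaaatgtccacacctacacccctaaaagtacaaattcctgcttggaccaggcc
Sh2d7, chr9:54533873-54534122, plus strand: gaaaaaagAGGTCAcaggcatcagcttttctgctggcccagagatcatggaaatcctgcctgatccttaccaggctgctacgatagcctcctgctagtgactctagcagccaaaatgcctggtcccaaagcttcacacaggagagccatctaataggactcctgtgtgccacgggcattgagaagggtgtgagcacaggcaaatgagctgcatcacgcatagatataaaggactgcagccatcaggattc
Il6, chr5:30012864-30013113, plus strand: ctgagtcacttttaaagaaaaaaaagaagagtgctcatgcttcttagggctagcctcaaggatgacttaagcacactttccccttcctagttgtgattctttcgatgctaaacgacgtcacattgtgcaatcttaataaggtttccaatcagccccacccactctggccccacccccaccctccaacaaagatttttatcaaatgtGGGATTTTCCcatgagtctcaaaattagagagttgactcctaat
Cxcl1, chr5:90890995-90891244, plus strand: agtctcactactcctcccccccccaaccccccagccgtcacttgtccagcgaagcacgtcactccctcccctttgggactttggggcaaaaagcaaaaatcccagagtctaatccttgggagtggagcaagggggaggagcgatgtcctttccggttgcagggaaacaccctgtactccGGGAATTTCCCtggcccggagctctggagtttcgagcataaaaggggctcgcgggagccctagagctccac

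The half-sites shown begin 248, 226 and 242 bases before the start in Akr1b7, Ces2a and Sh2d7, and the κB match begins 44 bases before it in Il6. In Cxcl1 there are 2 matches, 1 base apart, which overlap. The promoter table held 29 of the 36 called genes. A half-site was found in 12 of the 29, against 26.7% of all genes in the table, and a κB match in 5 of the 29, against 4.46%. Abcb1b, which was not called in Pxr-/- arrays, had no half-site, while Selp, Ifitm6 and Serpina3i, which were called there, had a half-site. Il1b, S100a8, S100a9 and Il33 had no κB match. Half-sites paired as a direct repeat with 3 or 4 bases between them, or as an everted repeat with 6, were found in none of the 29 and in 0.0518% of all genes. These are matches of letters in a short window, and sequence outside it was not searched.

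Sh2d7 and Calca had the smallest p-values. Sh2d7, an SH2-domain adaptor known from tuft cells, the chemosensory cells of the epithelium, was at 6.40, 6.37, 6.53 and 6.61 in WT CONT and at 8.11, 8.42, 6.53 and 6.92 in WT PCN. Replicate 3 was level with the controls, replicate 4 slightly above them, and replicates 1 and 2 far above. The difference was 1.79 ± 0.14 without replicates 3 and 4 (3.45-fold, adjusted p = 0.000698) and 1.07 ± 0.30 with all arrays (adjusted p = 0.932). It was the only one of 17 measured tuft cell genes to be called. The list had a median of -0.04, or 0.17 with all arrays, and Dclk1, a defining tuft cell kinase, differed by 0.37 without passing (adjusted p = 0.856).

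Calca, which encodes calcitonin and the neuropeptide CGRP, was at 5.32, 5.05, 5.85 and 5.92 in WT CONT and at 8.35, 8.15, 6.54 and 7.43 in WT PCN. All 4 PCN arrays lay above all 4 controls, an order that 1.82% of all genes showed. The difference was 2.72 ± 0.24 without replicates 3 and 4 (6.58-fold, adjusted p = 0.000835). The probe was well above background on 1 of the 4 WT CONT arrays and on all 4 WT PCN arrays. It was also well above background on 4 of the 5 Pxr-/- CONT arrays, which received no PCN, and on all 4 Pxr-/- PCN arrays. WT PCN replicate 3 is near-identical to Pxr-/- CONT replicate 2, and whether its place above the WT controls reflects PCN was not tested. The size of the difference depended on the processing, at 4.19 from the scaled scanner signal and 2.10 after normexp background correction. With all arrays it was 2.16 ± 0.31 (unadjusted p = 4.40e-06, adjusted p = 0.162). Of 15 measured genes of enteroendocrine cells Calca alone was called, and the list had a median of 0.10. Its relative Calcb, which codes for the second form of the peptide, differed by 0.30 without passing (adjusted p = 1.00).

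Among the called genes, the largest log2 differences were those of inflammatory genes. S100a8 and S100a9, the 2 subunits of calprotectin, which neutrophils carry in bulk, were called with 13.4-fold and 13.0-fold differences. S100a8 was at 6.94, 7.59, 7.98 and 8.53 in WT CONT and at 10.87, 12.14, 6.90 and 10.07 in WT PCN. S100a9 was at 8.35, 8.85, 9.71 and 10.06 in WT CONT and at 12.41, 13.47, 8.53 and 11.64 in WT PCN. Replicates 1, 2 and 4 lay above all controls in both genes, and replicate 3 was just below the controls for S100a8 and among them for S100a9. The log2 differences without replicates 3 and 4 were 3.75 ± 0.47 (adjusted p = 0.00758) and 3.70 ± 0.54 (adjusted p = 0.0215), and with all arrays 2.39 ± 0.76 and 2.43 ± 0.76 (adjusted p = 0.932 for each). Single PCN arrays decided these sizes. Without WT PCN replicate 2, S100a8 was at 2.88 (adjusted p = 0.0711) and S100a9 at 2.92 (adjusted p = 0.259), neither of them called, and without WT PCN replicate 1 they were at 4.61 and 4.48 (adjusted p = 0.00206 and 0.0143).

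Of 19 genes listed for neutrophils, 17 were measured and 15 (88.2%) were higher under PCN, against 48.4% of all genes. Among the 17, 7 were called, against 0.152% of all genes, and the median was 1.18, or 0.80 with all arrays. The members were chosen with earlier results of these data known, so these shares are no independent test. Stfa2l1, a stefin-type protease inhibitor, was not well above background on any WT CONT array (limma, adjusted p = 0.00758 for its fitted difference). In the deposited values its rise was at least 4.43-fold, a bound that other processing did not always keep. The bound takes, on each control array, the higher of the probe's own signal and the lowest signal well above background. For Stfa2l1 the fitted log2 difference of 2.21 was 4.15 from the scaled scanner signal and 1.46 after normexp. With 1 PCN array left out, it was 1.56 without replicate 2 and 2.86 without replicate 1. Beside these the called neutrophil genes were Retnlg, a resistin-like secreted protein (2.37, but 1.76 and not called without WT PCN replicate 2), the chemokine receptor Cxcr2 (1.78), the collagenase Mmp8 (1.18) and the decoy receptor Il1r2 (1.17). Cxcr2 and Mmp8 were well above background on 2 and 3 of the 4 WT CONT arrays, and from the scaled scanner signal they were at 2.86 and 1.98 and were not called. A second, dimmer probe of Il1r2 gave 0.71 ± 0.18 and did not pass (limma, adjusted p = 0.379). Clec4d, a lectin receptor (2.77, adjusted p = 0.0548), and Hdc, which makes histamine (2.22, adjusted p = 0.0618), just missed the threshold. Not all members followed. Camp, which codes for cathelicidin, was at 6.86 to 7.04 in WT CONT and at 6.81 and 6.91 in WT PCN replicates 1 and 2 (difference -0.12), and Ltf, lactoferrin, differed by 0.57 (adjusted p = 1.00 for each). The mean signal of the 17 genes was 7.13 to 7.53 in WT CONT, 8.52 and 8.95 in WT PCN replicates 1 and 2, 6.93 in replicate 3 and 7.96 in replicate 4. Stefin genes lie in a cluster of close copies on chromosome 16, as does the called transcript ENSMUST00000077110, and whether their probes bind each other's transcripts was not tested.

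Chemokines that draw neutrophils and monocytes were called as well. Of 24 listed cytokine and chemokine genes 16 were measured and 15 (93.8%) were higher under PCN, against 48.4% of all genes. Among the 16, 8 were called, against 0.152% of all genes, and the median was 1.14, or 0.66 with all arrays. This list too was chosen with earlier results of these data known, so its shares are no independent test. Cxcl5, an epithelial ligand of Cxcr2, was at 6.72, 7.24, 6.62 and 7.60 in WT CONT and at 9.90, 10.01, 5.93 and 9.10 in WT PCN. Its difference was 2.91 ± 0.31 without replicates 3 and 4 (7.51-fold, adjusted p = 0.00278) and 1.81 ± 0.65 with all arrays (adjusted p = 0.932). Ccl2, the main monocyte attractant, was at 8.77, 9.13, 9.78 and 10.04 in WT CONT and at 11.31, 11.70, 9.01 and 10.91 in WT PCN, a difference of 2.08 ± 0.29 (adjusted p = 0.0192), or 1.38 with all arrays. In both genes replicates 1, 2 and 4 were above every control and replicate 3 was not. Cxcl1, a further ligand of Cxcr2, rose by 1.61 ± 0.26 (adjusted p = 0.0368), with 0.85 when all arrays were used.

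Cytokines of the acute response followed the same pattern. Il1b, the pyrogenic cytokine interleukin-1β, was at 7.79, 7.74, 7.90 and 7.94 in WT CONT and at 9.38, 9.88, 7.73 and 8.41 in WT PCN. The difference was 1.79 ± 0.16 without replicates 3 and 4 (limma, adjusted p = 0.00112) and 1.07 with all arrays. A dimmer probe of Il1b was called as well (1.40 ± 0.15, adjusted p = 0.00282), and the dimmest gave 0.99 ± 0.20 and did not pass (adjusted p = 0.138). Il6, which drives the acute-phase response, was at 5.65, 5.20, 5.74 and 5.91 in WT CONT and at 7.88, 7.09, 5.42 and 7.02 in WT PCN, a difference of 1.86 ± 0.26 (adjusted p = 0.0192), or 1.30 with all arrays. That probe was well above background on 3 of the 4 WT CONT arrays, and from the scaled scanner signal its difference was 3.23 and not called (adjusted p = 0.217). Il33, an alarmin of epithelial and stromal nuclei, was at 8.35, 8.49, 9.29 and 8.92 in WT CONT and at 10.80, 10.58, 8.49 and 10.24 in WT PCN, a difference of 1.93 ± 0.25 (adjusted p = 0.00871), or 1.34 with all arrays. A second, dimmer probe of Il33 gave 1.09 ± 0.47 and did not pass (adjusted p = 0.915). Replicate 3 lay within the controls for Il6 and Il33 and just below them for Il1b. Osm, a cytokine of the interleukin-6 family (1.29, call kept in 9 of 21 alternative fits), and Ltb4r1, the receptor for leukotriene B4 (0.87, kept in 7), were called as well. Tnf, the tumor necrosis factor, was not, with 7.33 to 8.66 in WT CONT and 7.32 and 9.07 in WT PCN replicates 1 and 2 (difference 0.43, adjusted p = 1.00).

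Genes of the vessel wall and of myeloid cells moved less. Selp, the P-selectin that first tethers leukocytes to venules, was at 6.17, 6.22, 6.36 and 6.64 in WT CONT and at 7.74, 7.33, 6.60 and 7.67 in WT PCN. Replicates 1, 2 and 4 were above all controls, and the difference was 1.19 ± 0.17 without replicates 3 and 4 (adjusted p = 0.0192) and 1.03 ± 0.20 with all arrays (adjusted p = 0.678). A second probe of Selp was called as well, with 0.72 ± 0.11 (adjusted p = 0.0311), and the third, the dimmest, gave 0.52 ± 0.15 (adjusted p = 0.455). It was the only one of 11 measured venule genes to be called (list median 0.17, or 0.08 with all arrays). Of 13 macrophage and myeloid genes 11 (84.6%) were higher, against 48.4% of all genes, and the median was 0.45, or 0.08 with all arrays. In 6 of the 13, or 46.2%, both PCN arrays were above all controls, against 8.38% of all genes. These members too were chosen with earlier results of these data known, so the shares are no independent test. Fcgr3, an immunoglobulin receptor, was called (0.94 ± 0.15, limma, adjusted p = 0.0368). A second, dimmer probe of Fcgr3 gave 0.93 ± 0.19 and did not pass (adjusted p = 0.121).

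**Figure D3:**
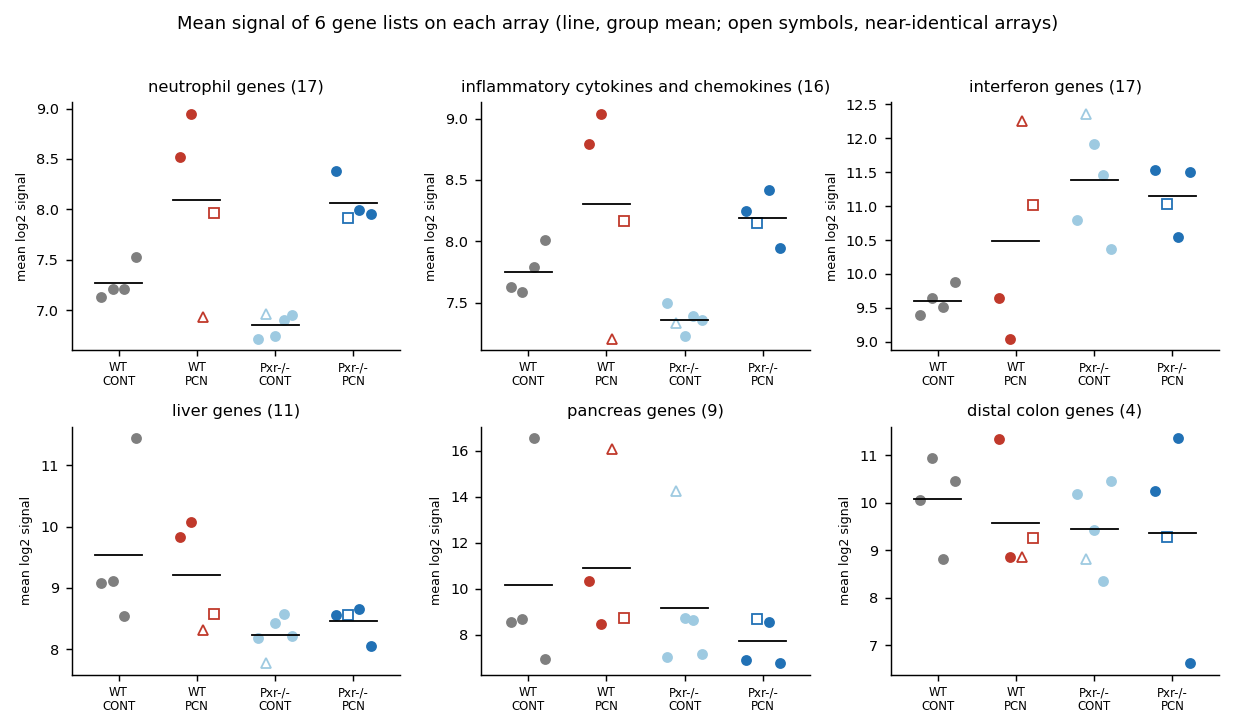
Mean log2 signal (y axis) over the measured genes of 6 lists on each array, by group (x axis), with group means as lines and the near-identical arrays as open symbols. WT PCN replicates 1 and 2 lie above the controls for the neutrophil and the cytokine genes, WT PCN replicates 3 and 4 lie with the Pxr-/- arrays for the interferon genes, and single arrays stand out for the liver and pancreas genes.

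Among the 14 remaining called genes, 13 carry a gene or transcript name and 1 is a probe named only by its position on chromosome 3. Sh2d7 and Calca are described above. Ifitm1 and Ifitm6, membrane proteins that are induced by cytokines, rose by 0.97 ± 0.12 and 1.18 ± 0.14 (adjusted p = 0.00662 and 0.00448). Serpina3n, an acute-phase inhibitor of neutrophil proteases, was at 9.23, 9.77, 9.44 and 10.15 in WT CONT and at 11.22, 10.96, 9.04 and 10.81 in WT PCN, a difference of 1.45 ± 0.19 (adjusted p = 0.0120), or 0.93 with all arrays. Its paralog Serpina3i rose by 1.06 ± 0.17 (adjusted p = 0.0368), while a second probe gave 0.57 and did not pass (adjusted p = 0.327). Serpina3i kept its call in 6 of 21 alternative fits. Hmox1, the stress-induced heme oxygenase, was at 9.85, 9.57, 9.86 and 10.26 in WT CONT and at 10.91, 11.34, 9.62 and 10.17 in WT PCN, a difference of 1.24 ± 0.18 (adjusted p = 0.0233), or 0.67 with all arrays. Cstdc4, a stefin-like gene, and the transcript ENSMUST00000077110 were not well above background on any WT CONT array (limma, adjusted p = 0.00278 and 0.0485 for their fitted differences). In the deposited values they rose at least 4.36-fold and at least 2.18-fold. Other processing did not always keep the bound of Cstdc4. Its fitted log2 difference of 2.20 was 4.13 from the scaled scanner signal and 1.54 after normexp. For ENSMUST00000077110 the fitted 1.285 was 3.58 from the scaled scanner signal. Emilin2, an extracellular matrix protein (1.24), Ms4a6d, a membrane protein of myeloid cells (1.06), Cep97, a centrosomal protein (0.98), and Als2cl (0.91) complete the named set. For Cep97 a second, brighter probe gave 0.07 ± 0.11 (adjusted p = 1.00), and the gene was not called with 1 probe per gene.

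The Pxr-/- arrays show which of these differences were also seen in mice labelled as lacking the receptor. In the same fit, 29 genes were called between Pxr-/- PCN and Pxr-/- CONT (0.122% of genes, 24 or 0.101% higher and 5 or 0.021% lower). With all arrays the same contrast called 2 genes (0.00842%), Selp and Gm15998, of which the second was named after its values were seen; it uses the same 9 arrays, and only the estimate of the spread and of the wash bath changed. Of the 29, 15 were among the 36 called in WT, which is 41.7% of the WT genes and 51.7% of the Pxr-/- genes. The shared genes were S100a8, S100a9, Cxcl5, Ccl2, Il33, Il6, Il1b, Il1r2, Selp, Stfa2l1, Cstdc4, Serpina3n, Serpina3i, Ifitm1 and Ifitm6. With the partners of both near-identical pairs left out too, 16 genes were called in Pxr-/- and 7 of them were shared with the 19 of WT. S100a8, for example, was at 5.95 to 7.26 in the 5 Pxr-/- CONT arrays and at 9.52 to 10.70 in the 4 Pxr-/- PCN arrays, a difference of 3.55 ± 0.36 (adjusted p = 0.00178) against 3.75 in WT. Over the 17 inflammatory genes the median difference was 1.79 in WT and 1.29 in Pxr-/-, and 10 of the 17 were called in both. None of the 5 genes of drug metabolism was called in Pxr-/-, and their median was 1.49 in WT and 0.28 in Pxr-/-.

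The difference between both PCN effects was tested directly as an interaction. No gene passed with all arrays (0%, with 2038 probes, carrying 7.91% of gene names, at an unadjusted p under 0.05). Without WT PCN replicates 3 and 4, 3 genes passed (0.0126% of genes), each with the more positive effect in WT. Sh2d7 was at 6.28 to 6.76 in Pxr-/- CONT and at 6.20 to 6.52 in Pxr-/- PCN, an effect of -0.16 ± 0.11, and the WT effect exceeded it by 1.94 ± 0.18 (limma interaction, adjusted p = 0.00404). Akr1b7 was at 7.58 to 8.31 in Pxr-/- CONT and at 7.43 to 7.96 in Pxr-/- PCN, an effect of -0.32 ± 0.16, and the WT effect exceeded it by 2.28 ± 0.26 (adjusted p = 0.0172). The third was Clca4c-ps, a pseudogene of the chloride channel accessory family, which lies outside the rule for named genes and was chosen after its values were seen. Its probe was well above background on all WT arrays and on 2 of the 4 Pxr-/- PCN arrays. It was at 6.44, 6.19, 6.28 and 6.04 in WT CONT, at 6.97, 7.44, 7.31 and 5.75 in WT PCN, at 6.72 to 7.50 in Pxr-/- CONT and at 5.45 to 5.88 in Pxr-/- PCN. Its WT effect was 0.97 ± 0.22 (adjusted p = 0.235), its Pxr-/- effect was -1.40 ± 0.17, and their difference was 2.37 ± 0.28 (adjusted p = 0.0172). Leaving out 1 array moved the count to 44 (WT PCN replicate 1), 32 (WT PCN replicate 2), 6 (WT CONT replicate 5) and 1 (WT CONT replicate 3). It was 0 with the slide as a fixed block, and when the partners of the near-identical pairs were left out, Sh2d7 alone passed (adjusted p = 0.0153, and 0.111 for Akr1b7).

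For Ces2a and the ABC transporters the difference between genotypes did not pass. Ces2a was at 9.68 to 10.25 in Pxr-/- CONT and at 10.21 to 11.11 in Pxr-/- PCN, an effect of 0.61 ± 0.19, and the WT effect exceeded it by 1.69 ± 0.30 (adjusted p = 0.551). The WT effect exceeded that in Pxr-/- by 1.24 ± 0.28 for Abcb1b, 1.18 ± 0.26 for Abcb4 and 1.05 ± 0.29 for Abcb1a (adjusted p = 1.00 for each). For Calca it exceeded the Pxr-/- effect of 1.06 ± 0.18 by 1.66 ± 0.30 (adjusted p = 0.551). Among the inflammatory genes the difference was 0.20 ± 0.59 for S100a8 and 0.19 ± 0.40 for Cxcl5, intervals that span 0 and also leave room for an unequal response. Of the 15 genes called in both genotypes, S100a9, Selp, Serpina3n and Serpina3i had the larger effect in Pxr-/- and the others in WT. The effects were farthest apart for Il1b, at 1.79 in WT and 0.80 in Pxr-/-. None of these differences passed.

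**Figure D4:**
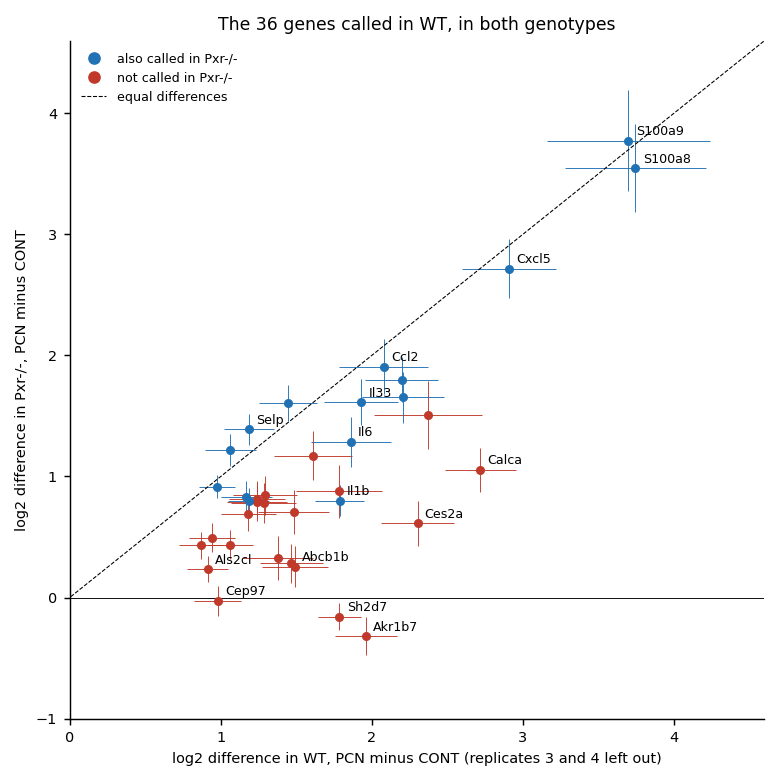
Log2 difference between PCN and CONT in WT with replicates 3 and 4 left out (x axis) and in Pxr-/- (y axis) for the 36 genes called in WT. Points are genes, bars are standard errors, blue genes were also called in Pxr-/- and red ones were not, and the dashed line marks equal differences. S100a8, S100a9 and Cxcl5 lie near the dashed line, and Akr1b7 and Sh2d7 lie below 0 in Pxr-/-.

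The 2 PCN arrays left out differed from each other over the 36 genes. WT PCN replicate 3 was above all controls for 2 of the 36 genes, Calca and Retnlg. WT PCN replicate 4 was above all controls for 25 of the 36, among them 16 of the 17 inflammatory genes and none of the 5 genes of drug metabolism. Both arrays were below every control for 4 of those 5 genes. Over all 23761 genes, 1400 were lower in both arrays than in all 6 other WT arrays, an order that takes in WT PCN replicates 1 and 2 as well. The share of all genes in the orders against the controls alone was not computed, so the counts only describe the arrays. Over the 36 genes replicate 4 differed from its partner labelled Pxr-/- PCN replicate 2 by a median of 0.06 and at most 0.42, and replicate 3 from its partner labelled Pxr-/- CONT replicate 2 by a median of 0.14 and at most 0.63. Interferon-stimulated genes separated the same arrays. The mean signal of 17 such genes was 9.39 to 9.88 in WT CONT, 9.64 and 9.05 in WT PCN replicates 1 and 2, 12.25 and 11.01 in replicates 3 and 4, and 10.37 to 12.36 in the 9 Pxr-/- arrays. Their median PCN effect in WT was 0.74 with all arrays and -0.26 without replicates 3 and 4, and none of them was called in either fit. Isg15, a ubiquitin-like antiviral protein, was at 11.52 to 12.41 in WT CONT, 12.01 and 10.83 in replicates 1 and 2, and 15.45 and 13.86 in replicates 3 and 4.

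With all arrays, the genes of smallest p were mostly those in which replicates 3 and 4 stood with replicates 1 and 2, and none passed the test. The 10 higher genes of smallest p were Calca, Adamts1, Cd47, Retnlg, Gem, Selp, Ren2, Mmp8, Il6 and the transcript ENSMUST00000178160. Adamts1, a matrix metalloprotease, was at 8.39, 8.01, 8.32 and 8.45 in WT CONT and between 8.74 and 9.13 in WT PCN, a difference of 0.72 ± 0.12 (adjusted p = 0.475). Cd47, the surface protein that restrains phagocytosis, was at 12.07, 12.04, 12.00 and 12.10 in WT CONT and at 12.48, 12.34, 12.32 and 12.41 in WT PCN, a difference of 0.34 ± 0.06 (adjusted p = 0.475), or 0.23 on a second probe (adjusted p = 0.932). Both groups were apart in both genes. The Pxr-/- CONT arrays, which received no PCN, lay at 8.50 to 8.97 for Adamts1 and at 12.17 to 12.32 for Cd47, above all WT CONT arrays. Gem, a small GTPase, differed by 0.62 ± 0.12 (adjusted p = 0.629) and Ren2, a renin, by 0.43 ± 0.10 (adjusted p = 0.932).

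The 10 lower genes of smallest p had differences from -0.86 to -0.30 and no adjusted p under 0.629. Chst2, a sulfotransferase that modifies the glycans of selectin ligands, was at 6.98, 7.47, 7.14 and 6.90 in WT CONT and at 6.43, 6.62, 6.41 and 6.47 in WT PCN, a difference of -0.64 ± 0.12 (adjusted p = 0.629). Tcf15, a transcription factor, was at 7.35, 7.29, 7.18 and 7.25 in WT CONT and at 6.40, 6.91, 6.73 and 6.67 in WT PCN, a difference of -0.60 ± 0.12 (adjusted p = 0.750). All 4 PCN arrays lay below all 4 controls in both genes, an order that 1.55% of all genes showed. Pxr-/- CONT arrays lay at 6.31 to 6.69 for Chst2, below every WT CONT array. For Slc36a2, an amino acid transporter (-0.86), 2 other probes gave -0.06, on the brightest, and -0.25. The others were Shisa2 (-0.59), Kazn (-0.53; other probes -0.35 to -0.05), Robo3, an axon guidance receptor (-0.45), Dgkh, a diacylglycerol kinase (-0.37; other probes -0.27 to -0.24), Mlh3, a DNA mismatch repair protein (-0.33), Relch (-0.30) and a transcript named only by its position on chromosome 8 (-0.32).

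No member of the other lists was called, and their medians without replicates 3 and 4 are given with those of all arrays beside them. They were 0.41 and 0.17 for 10 mast cell and eosinophil genes, 0.33 and 0.31 for 16 glucocorticoid-responsive genes, 0.24 and 0.01 for 14 antimicrobial genes, and 0.12 and 0.00 for 14 clock genes. In 5 of the 10 mast cell and eosinophil genes both PCN arrays were above all controls (against 8.38% of all genes). That list too was chosen with earlier results of these data known, so the share is no independent test. The medians were 0.06 and 0.23 for 15 cell cycle genes, -0.01 and -0.18 for 15 cholesterol synthesis genes and -0.04 and -0.02 for 17 PPARα target genes. For 10 plasma and B cell genes they were -0.27 and -0.21, and for 10 adipocyte genes -0.49 and -0.70. The 12 T cell genes changed sign, with -0.26 and 0.10, as did the 12 goblet cell genes, with -0.11 and 0.12, and the 15 colonocyte genes, with 0.01 and -0.05.

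**Figure D5:**
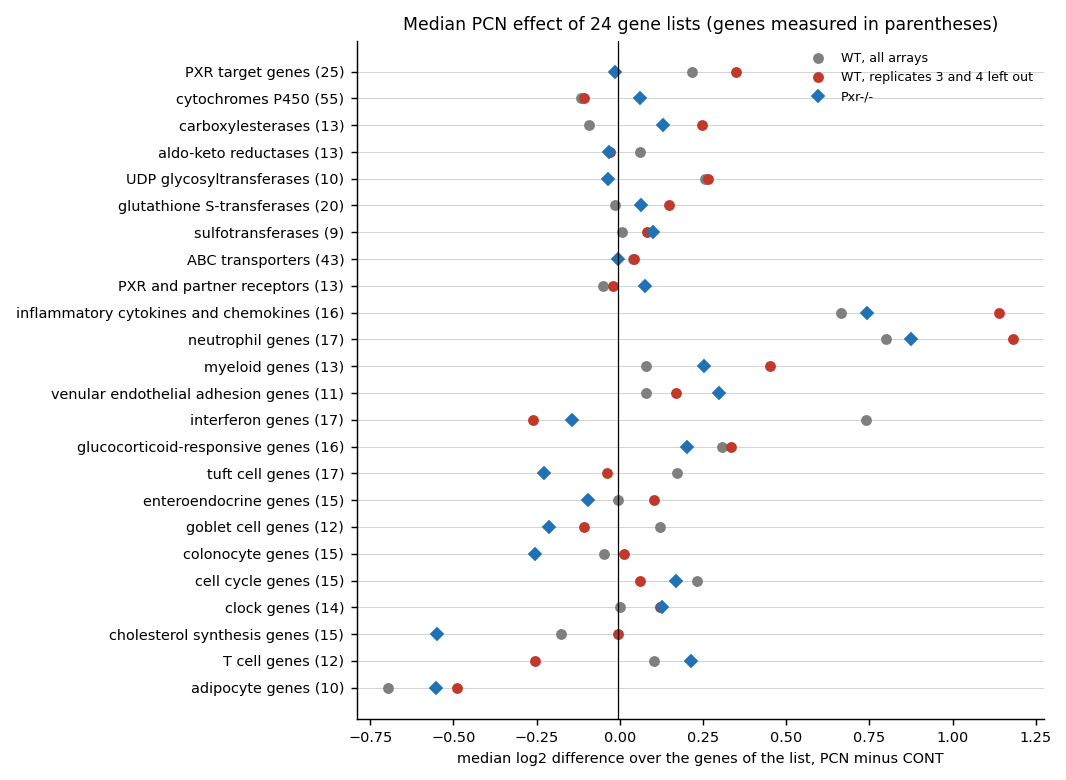
Median log2 difference between PCN and CONT (x axis) over the measured genes of 24 lists (y axis), in WT with all arrays (grey), in WT without replicates 3 and 4 (red) and in Pxr-/- (blue diamonds), with a vertical line at the median of all genes. The neutrophil and cytokine lists lie farthest to the right in red, and the interferon list lies on opposite sides of the line in grey and red.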

How the data were processed

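Colon RNA was labelled with Cy3 and hybridized to 1-colour Agilent mouse arrays on 8 slides, which were washed in 2 baths. Scanner intensity values were deposited for every array, read with Agilent Feature Extraction 10.10.1.1 per the submitters' processing notes, which also name limma. The deposited log2 values of the series table were normalized between arrays and corrected for the wash bath by the authors; no pseudocount was added here. All 17 columns were used, and 24626 probes were named through RefSeq accessions, which changed 1182 names. Coordinates of array probes are those of build mm9 in the scanner files, and promoters are RefSeq's for GRCm38.p6.

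A linear model with group and wash bath was fitted to all 36695 probes (limma 3.58.1 in R 4.3.3), with Benjamini-Hochberg adjustment over all probes, and a gene was called when a probe passed a false discovery rate of 0.05 and changed by more than 1.5-fold. Contrasts were WT PCN against WT CONT, the same in Pxr-/-, and their difference, each with all arrays and without WT PCN replicates 3 and 4. The named genes were Nr1i2, the called genes (the 30 of largest difference), the 10 higher and 10 lower genes of smallest p with all arrays, and called, defining or most changed members of 42 lists; the 6 called genes beyond the 30 were named after their values were seen where no list held them. The members and lists were chosen with earlier results of these data known. Figures were drawn with matplotlib 3.10.9. The fit was tested on simulated data. Alternatives were other normalizations of the scanner intensity (quantile, the 75th percentile, normexp with an offset of 50), filters on dim probes, 1 probe per gene, slide or replicate number as a block, other thresholds, and arrays left out. The number of arrays limits the precision.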

Additional observations from a re-analysis of the deposited data

Results flagged for a closer look

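The PCN effect differed between WT and Pxr-/- by the interaction test, without WT PCN replicates 3 and 4, for Clca4c-ps (2.37, adjusted p = 0.0172), Akr1b7 (2.28, adjusted p = 0.0172) and Sh2d7 (1.94, adjusted p = 0.00404).

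Single arrays lay far from the rest of their group of 4, in 3 of 92 groups of values of single genes and 7 of 84 of list means; chance gives about 1 in 20. Among genes, Cxcr2 was at 5.87 in WT CONT replicate 5 (others 5.41 to 5.45), Relch at 7.45 in WT CONT replicate 5 (others 7.67 to 7.68) and Mlh3 at 6.98 in WT CONT replicate 2 (others 7.11 to 7.14). Among list means in WT CONT, aldehyde dehydrogenases were at 11.18 in replicate 4 (others 10.96 to 10.99), clock genes at 10.17 in replicate 4 (others 10.66 to 10.70), cholesterol synthesis genes at 12.46 in replicate 2 (others 12.03 to 12.08) and mesothelial genes at 8.48 in replicate 3 (others 9.65 to 9.75). WT PCN replicate 1 stood apart in the segment lists, with distal colon genes at 11.35 (others 8.85 to 9.27) and proximal colon and ileum genes at 9.38 (others 10.12 to 10.26), and in stem and transit cell genes, at 11.00 (others 11.08 to 11.09).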

How the results depend on the processing

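The count of 36 genes without WT PCN replicates 3 and 4 moved to 61 with no wash bath term, 63 at a false discovery rate of 0.10, 19 without all 4 near-identical arrays, 1 with the slide as a fixed block and 0 with the WT groups alone, and ran from 15 to 101 with 1 WT array left out. WT CONT replicates 2, 3 and 5 and WT PCN replicates 1 and 2 each moved it by over 1.5 times (18, 15, 63, 101 and 65). With the replicate number as a block it was 10, of which 8 were among the 36. Deviations of same-numbered WT arrays had r from -0.262 to 0.005 over 3 pairs. The pairs of replicates 3 and 4 use the near-identical arrays, so this check cannot decide on pairing. The numbers were not taken as pairs, since nothing in the labels ties a number to a pair of mice. With all arrays the count of 0 moved to 16 without WT PCN replicate 3, 19 without all 4 near-identical arrays and 1 with array weights, and ran from 0 to 16 with 1 array left out. The genotype difference moved from 0 to 1 with all arrays, without all 4 near-identical arrays or without WT PCN replicate 4, and from 3 to 0 with the slide as a fixed block and to 1 without the 4 arrays, and ran from 1 to 44 with 1 array left out (32 without WT PCN replicate 2, 44 without WT PCN replicate 1, 1 and 6 without WT CONT replicates 3 and 5). Leaving out WT CONT replicates 4 and 5 together, chosen after seeing the data, gave 37, 1, 1 and 7 in these 4 results. Nr1i2 turned from -0.35 to 0.052 without all 4 near-identical arrays. Of 30 named called genes, 29 stayed called after quantile normalization, 20 after scaling to the 75th percentile, 29 after normexp and 15 without all 4 near-identical arrays, with no change of direction. Fold changes of these 30 moved by over 1.5 times for 8 genes after scaling to the 75th percentile, 3 after normexp, and 5 each without WT PCN replicate 1 or 2. Over 21 alternative fits, the 36 called genes kept their call in between 6 (Serpina3i) and 19 (Akr1b7, Ces2a, Cxcl5, Il1b and Sh2d7). The cause of these changes was not tested.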
